A study of Danio rerio with 6 samples.

Results

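Endothelial cells line every blood vessel, and the sheet of them that lines the inside of the heart is the endocardium. Transcription factors of the ETS family, among them Etv2, Fli1 and Erg, and of the SoxF group set up and hold this identity. The cells are joined by VE-cadherin, the product of *cdh5*, and carry receptors such as Tie1, and the cerebral cavernous malformation (CCM) proteins act with the surface protein Heg1 to control their junctions and, in zebrafish, the size of the heart. The genes described here were 38 endocardial and endothelial identity genes chosen by name. Of these, 35 matched a row of the 31701 genes in the deposited table by symbol. The names *eng*, *plvapa* and *plvapb* matched none and were not analysed here.

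Whole hearts were dissected from *Danio rerio* larvae at 57 to 59 hours post fertilization. The larvae were either labelled mutant or were wild-type (WT) siblings, and the title of the series names Wwtr1, a transcriptional coactivator at the end of the Hippo pathway. The labels name no allele, strain or treatment. Per genotype, 3 pools of 23 hearts, described as biological replicates, gave 1 library each. A value is thus an average over animals and over all cell types in the pool.

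The unit throughout is the deposited normalised read count, a count of reads per gene scaled between libraries and rounded. The totals of this measure ran from 21068538 to 21968397 in mutant and from 19187058 to 25227868 in WT libraries. *wwtr1* itself stood at 128, 151 and 100 in mutant replicates 1 to 3 and at 362, 416 and 471 in WT replicates 1 to 3. All 12 myocardial and 7 epicardial markers were measured above the value filter. So were 9 red cell, 10 macrophage and neutrophil and 8 skin and hatching gland markers. The pools thus held RNA of other cells too, among them skin and hatching gland cells from outside the heart. A gene was tested where 3 or more of the 6 libraries held a value of 10 or above, which 18901 genes met. Of the 35 endothelial genes 33 met it. The other two were the SoxF factor gene *sox17*, listed between 1 and 15, and the lymphatic receptor gene *lyve1b*, listed between 1 and 9.

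The endothelial programme was present in both genotypes, and no endothelial gene passed the test between them. By limma with Benjamini-Hochberg adjustment over all genes tested, 0 of 33 had an adjusted p under 0.05, where 0.037% of all genes tested did, and the adjusted p ranged from 0.496 to 0.986. The count without adjustment was 6 of 33 under 0.05, 4 higher and 2 lower in mutant hearts, against 6.6% of all genes tested (3.25% higher and 3.35% lower). The median log2 difference, mutant minus WT, was 0.08 over the 33 genes and −0.00291 over all genes tested, and 23 of the 33, or 69.7%, stood above 0, against 49.5% of all genes tested. Genes measured in the same library are not replicates of a genotype. The mean log2 deviation of the 33 genes in each library was −0.049, 0.087 and 0.104 in mutant replicates 1 to 3. In WT replicates 1 to 3 it was 0.013, −0.109 and −0.045, so the genotypes overlapped. In bulk hearts, a difference in the number of cells of a type and a difference in RNA per cell cannot be told apart.

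Groups did not overlap for 7 of the 33 genes, with 5 higher and 2 lower in every mutant library than in any WT library. This is 21.2%, against 11.1% of all genes tested, of which 5.57% were higher and 5.53% lower. Without WT replicate 1 the count was 13 of 33, against 20.8% of all genes. Without mutant replicate 2 or WT replicate 3 it was 11, against 21.5% and 20% of all genes. Without mutant replicate 1 it was 10 and without mutant replicate 3 it was 9, against 20% and 19.8%. Without WT replicate 2 it stayed at 7, or 21.2%, and so did not exceed the 21.3% of all genes. The higher genes were *cdh5*, *tie1*, *acvrl1*, *tal1* and *pdcd10a*, and the lower ones were *stab1* and *aqp8a.1*. They cover all 6 roles described next, and none passed the test.

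**Figure D1:**
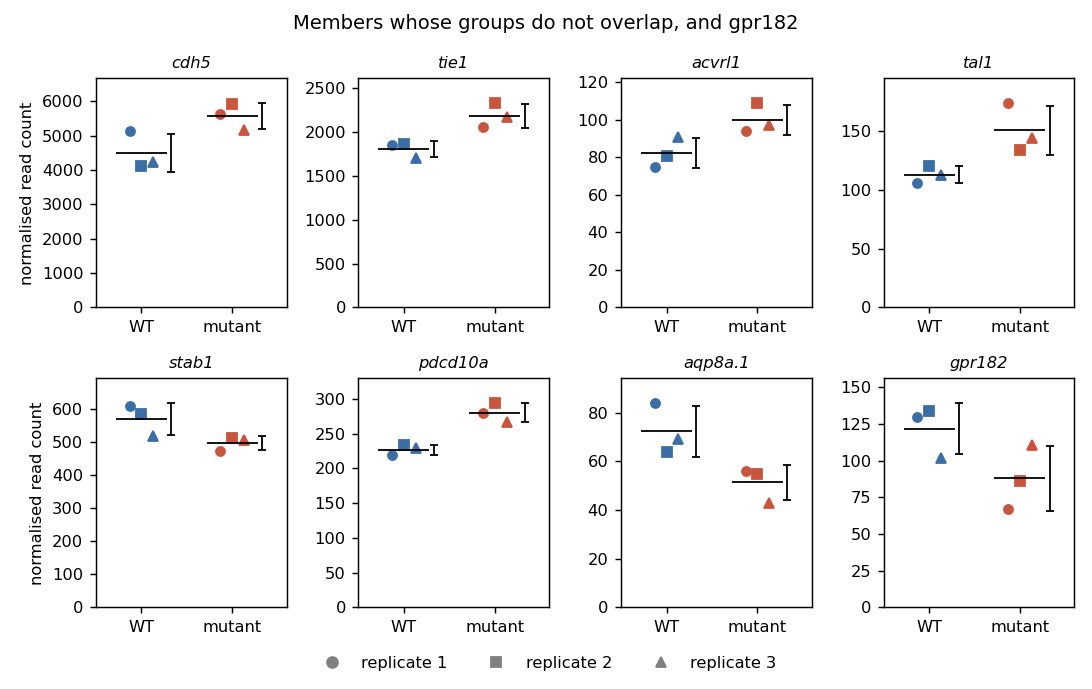
Normalised read count (vertical axis, from 0) in each library of the 7 genes whose genotypes do not overlap, and of *gpr182*, whose genotypes do. Marker shape gives the replicate, the horizontal line the mean and the bar the SD (n = 3). For *cdh5* the lowest mutant library, at 5162, lies just above WT replicate 1, at 5129.

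Among junction and adhesion genes, *cdh5* encodes VE-cadherin, the adhesion molecule of endothelial junctions (ENSDARG00000075549, chromosome 7, 44106370 to 44180006 on GRCz10). It stood at 5627, 5923 and 5162 in mutant replicates 1 to 3 and at 5129, 4109 and 4238 in WT replicates 1 to 3. All mutant libraries were higher than all WT libraries, and WT replicate 1 came close to the lowest of them. The log2 difference was 0.32 with a 95% interval from 0.10 to 0.53 (limma adjusted p = 0.496). Without WT replicate 1 it was 0.41, with the lowest adjusted p of any alternative setting, 0.169.

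The other junction genes had genotypes that overlapped. *heg1*, which encodes the transmembrane receptor that recruits the CCM proteins to junctions, stood at 1014, 1137 and 1061 in mutant and 1218, 1130 and 1051 in WT hearts. Its log2 difference of −0.08 had an interval from −0.27 to 0.11. *pecam1* and *esama*, which encode immunoglobulin-type adhesion molecules of endothelial cells, stood at 258 ± 22.6 (SD, n = 3) against 253 ± 9.50 and at 488 ± 16.4 against 468 ± 30.7. The tight junction gene *cldn5b* stood at 77, 76 and 88 in mutant and 51, 56 and 77 in WT hearts. WT replicate 3 equalled the level of mutant replicate 1 there, and the interval of the log2 difference of 0.40 reached from −0.04 to 0.84.

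Of the receptor genes, *tie1* encodes a receptor tyrosine kinase of the angiopoietin pathway needed for the endocardium and vessels in mice (ENSDARG00000004105, chromosome 6, 33998984 to 34024189). Its values were 2052, 2330 and 2166 in mutant and 1849, 1863 and 1706 in WT hearts, with every mutant library above every WT library. The log2 difference was 0.27, with an interval from 0.09 to 0.45 (limma adjusted p = 0.496), and it lay between 0.22 and 0.32 under the alternative settings. *tek*, which encodes the related receptor Tie2, stood at 196, 215 and 218 in mutant and at 214, 259 and 202 in WT hearts. Its genotypes overlapped, with a log2 difference of −0.09 and an interval from −0.37 to 0.18. Whether the differences of *tie1* and *tek* differ from each other was not tested.

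*acvrl1* encodes the type I receptor Alk1, through which endothelial cells read BMP9 and BMP10. It stood at 94, 109 and 97 in mutant and 75, 81 and 91 in WT hearts. The groups were separated by 3 units between mutant replicate 1 and WT replicate 3, and the interval of the log2 difference of 0.28 held 0 (−0.08 to 0.64, limma adjusted p = 0.842). When values were divided by the myocardial marker sum described below, its genotypes overlapped.

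*gpr182*, which encodes an endothelial chemokine-scavenging receptor, was lower without being separated. Its values were 67, 86 and 111 in mutant and 130, 134 and 102 in WT hearts, so that mutant replicate 3 exceeded WT replicate 3. The log2 difference was −0.49, with an interval from −0.91 to −0.06 (limma adjusted p = 0.704). The phosphatase gene *ptprb*, whose product VE-PTP acts on Tie2 and VE-cadherin, stood at 658, 886 and 830 in mutant and 911, 739 and 796 in WT hearts, and its interval ran from −0.30 to 0.20. The lectin-type receptor gene *clec14a* was nearly level over the mutant libraries, at 468, 476 and 471, while WT libraries read 486, 343 and 390. The guidance receptor gene *robo4* (58.3 ± 10.2 in mutant against 49.0 ± 13.7 in WT hearts) and *ecscr*, a regulator of endothelial migration (371 ± 57.7 against 322 ± 59.9), overlapped between genotypes.

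**Figure D2:**
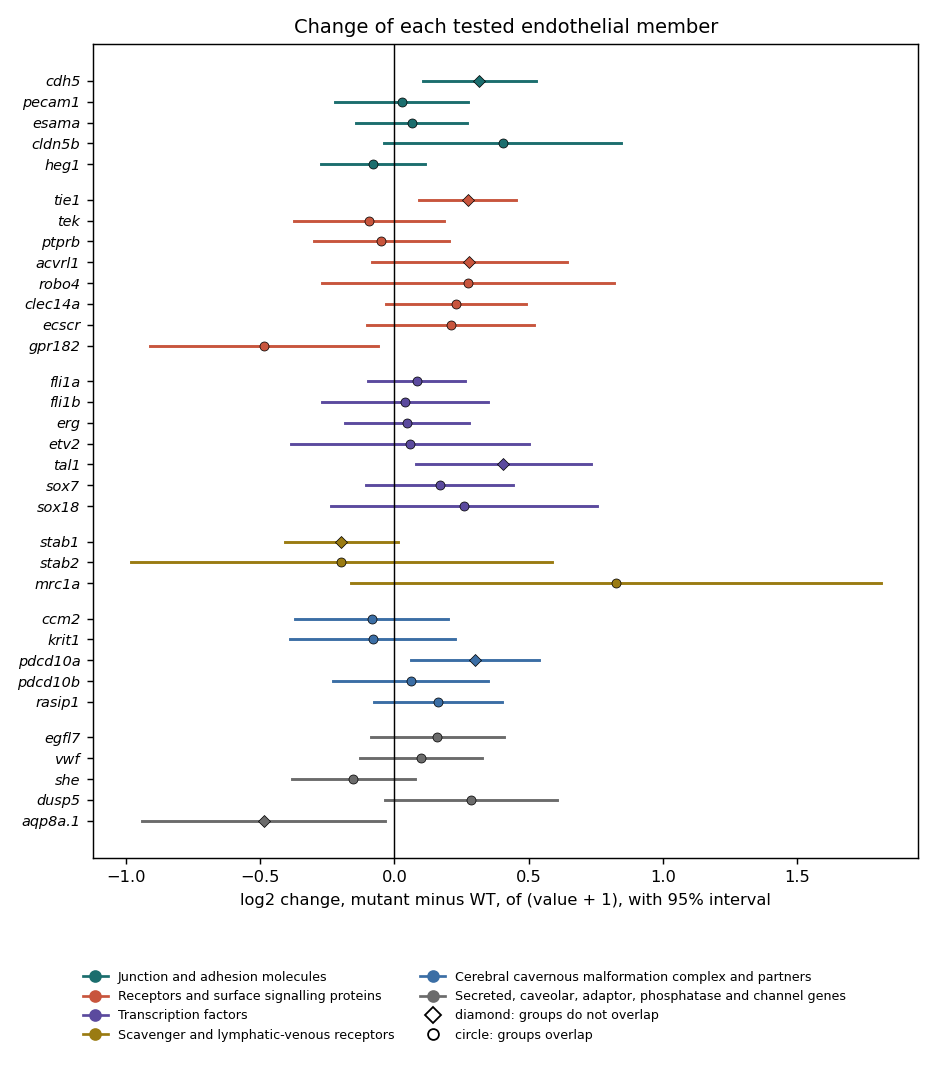
Log2 difference, mutant minus WT, of the normalised read count plus 1 for each of the 33 tested genes, with its 95% limma interval (horizontal axis) and genes ordered by role. Diamonds mark the 7 genes whose genotypes do not overlap. Of the 33 intervals, 4 lie above 0, 2 lie below 0 and the rest hold 0.

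Transcription factor genes of the endothelium were measured at 7 of 8 names, and all 7 log2 differences were above 0, between 0.04 and 0.40. Only *tal1* had genotypes that did not overlap. It encodes a basic helix-loop-helix factor that specifies blood and endothelium and that red cell precursors also carry (ENSDARG00000019930, chromosome 22, 16509305 to 16519060). Its values were 174, 134 and 144 in mutant and 106, 120 and 113 in WT hearts, with a log2 difference of 0.40 and an interval from 0.08 to 0.73 (limma adjusted p = 0.644). The 9 red cell markers summed to 171338, 99287 and 140395 in mutant and 119638, 109307 and 106037 in WT hearts. Over these markers 8 of 9 log2 differences were above 0, with a median of 0.29. The exception was *spi1a* (−0.18), whose paralogue *spi1b* was listed with the macrophage and neutrophil markers. Whether *spi1a* marks red cells here was not tested. At an unadjusted p under 0.05, 3 of the 9 were higher and 0 lower by limma, against 3.25% and 3.35% of all genes tested, and 0 passed after adjustment. These 3 were the heme synthesis gene *alas2* (log2 difference 0.33), the band 3 anion exchanger gene *slc4a1a* (0.35) and the globin gene *hbbe1.2* (0.34). The smallest differences above 0 were those of *gata1a* (0.18), *hbbe1.1* (0.17) and *epb41b* (0.04). In mutant replicate 2, *tal1* stood at 134, its lowest mutant value, and the red cell sum was the lowest of the 6 libraries. Among WT libraries the order differed, as replicate 1 had the highest red cell sum and the lowest *tal1* value, 106. The part of red cells in the *tal1* values was not tested.

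The ETS factor genes differed little between genotypes. *fli1a*, the gene whose promoter region is widely used to label zebrafish endothelium, stood at 1122, 1078 and 1173 in mutant and 1099, 1011 and 1075 in WT hearts. These ranges overlapped, and the log2 difference was 0.08 (interval −0.10 to 0.26). *erg* stood at 623, 836 and 694 in mutant and 705, 667 and 699 in WT hearts, with mutant replicate 2 highest and mutant replicate 1 lowest of the 6 libraries. Its log2 difference was 0.05 (−0.19 to 0.28) and went to −0.07 without mutant replicate 2.

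*etv2*, a pioneer factor of endothelial fate, and *fli1b* are neighbours on chromosome 16, 4.13 kb apart with 0 genes of the table lying between them. *etv2* stood at 171, 287 and 158 in mutant and 210, 221 and 148 in WT hearts, and *fli1b* at 265, 410 and 378 in mutant and 361, 320 and 328 in WT hearts. Both were highest in mutant replicate 2. Their log2 differences of 0.06 and 0.04 turned to −0.21 and −0.09 without that library. The ratio of *fli1a* to *fli1b* was 4.23, 2.63 and 3.10 over the mutant and 3.04, 3.16 and 3.28 over the WT libraries. Its range was wider over the mutant libraries measured, and whether the spread differs between genotypes was not tested. For the SoxF genes that were tested, *sox7* stood at 333 ± 48.2 against 295 ± 28.6 and *sox18* at 47.7 ± 4.16 against 39.7 ± 3.51, with genotypes that overlapped.

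Scavenger receptor genes, which are known from veins, lymphatic vessels and specialised sinusoidal endothelium, were tested at 3 of 4 names, with 1 log2 difference above and 2 below 0. *stab1* encodes the scavenger receptor Stabilin-1 (ENSDARG00000076484, chromosome 22, 10251738 to 10324699). It stood at 472, 512 and 507 in mutant and 611, 584 and 518 in WT hearts, with all mutant libraries lower and 6 units between mutant replicate 2 and WT replicate 3. The log2 difference was −0.20, with an interval that just held 0 (−0.41 to 0.01, limma adjusted p = 0.774). Macrophages can also carry Stabilin-1, and the 10 macrophage and neutrophil markers, all with log2 differences below 0, summed to between 509 and 785 in mutant and between 671 and 983 in WT hearts. The part of these cells in the *stab1* values was not tested.

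*stab2* and the mannose receptor gene *mrc1a* were highest in replicate 3 of both genotypes. *stab2* stood at 26, 34 and 78 in mutant and 33, 47 and 68 in WT hearts, with a log2 difference of −0.20. Leaving out mutant replicate 3 gave −0.65, leaving out mutant replicate 1 gave 0.12 and leaving out WT replicate 3 gave 0.06. For *mrc1a* the values were 35, 25 and 91 in mutant and 18, 16 and 47 in WT hearts. The log2 difference of *mrc1a*, 0.82, was the largest of the 33 in size and the least precise, with an interval from −0.16 to 1.81 (limma adjusted p = 0.817). Without mutant replicate 3 it was 0.30 and without WT replicate 3 it was 1.297. *lyve1b*, below the filter, read 1, 2 and 4 in mutant and 4, 3 and 9 in WT hearts, and the lymphatic and venous Vegf receptor gene *flt4*, which is not one of the 38 genes, read 62, 49 and 87 against 61, 60 and 107. These were set side by side after their values were seen. Across all genes tested, deviations of same-numbered libraries correlated at 0.0217, −0.0224 and −0.0178. Whether same-numbered libraries share an effect in single genes such as these was not tested.

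**Figure D3:**
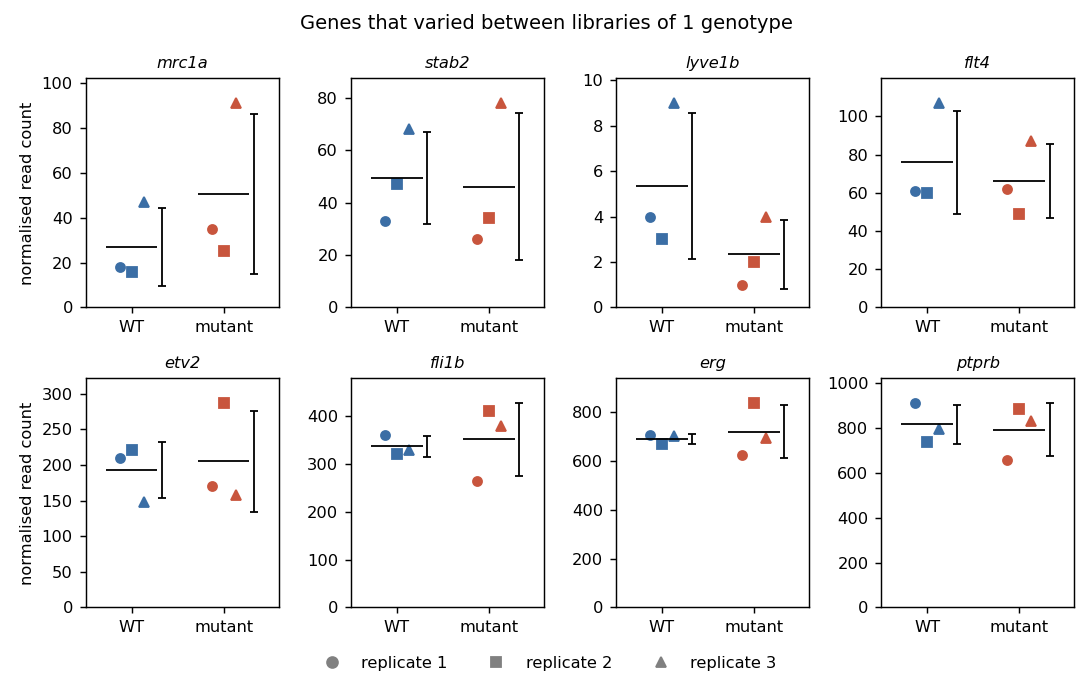
Normalised read count (vertical axis, from 0) in each library of genes that varied within a genotype, chosen after their values were seen. In the upper row *mrc1a*, *stab2*, *lyve1b* and *flt4* are highest in replicate 3 (triangles) of both genotypes, and in the lower row *etv2*, *fli1b* and *erg* are highest in mutant replicate 2 (red square), while *ptprb* is highest in WT replicate 1. Lines are means and bars are SD (n = 3).

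In the CCM group, *pdcd10a* alone had genotypes that did not overlap. It encodes Ccm3, a scaffold that binds Ccm2 and germinal centre kinases (ENSDARG00000035054, chromosome 18, 4981072 to 5004911). Its values were 279, 294 and 267 in mutant and 219, 233 and 229 in WT hearts, tight within each genotype. The log2 difference was 0.30 (interval 0.06 to 0.54, limma adjusted p = 0.638), and it lay between 0.27 and 0.33 under the alternative settings. The paralogue *pdcd10b* stood at 179, 157 and 165 in mutant and 172, 165 and 144 in WT hearts, with a log2 difference of 0.06 (−0.23 to 0.35). The ratio of *pdcd10a* to *pdcd10b* was 1.56, 1.87 and 1.62 over the mutant and 1.27, 1.41 and 1.59 over the WT libraries, and these ranges overlapped. Whether reads were shared between the paralogues was not tested.

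The remaining genes of the CCM group had genotypes that overlapped. *ccm2*, the adaptor of the complex, stood at 171 ± 14.8 against 181 ± 14.9, and *krit1*, which encodes Ccm1, at 148 ± 12.1 against 157 ± 19.1. *rasip1*, which encodes a Ras-interacting protein that acts with Heg1 at endothelial junctions, stood at 423, 372 and 402 in mutant and 398, 352 and 322 in WT hearts. Its log2 difference was 0.16 (−0.08 to 0.40), with mutant replicate 2 inside the WT range. *klf2a* and *klf2b*, flow-sensitive factor genes known to rise when the CCM complex is lost, are given with the other endothelial genes below.

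Among the remaining roles, *aqp8a.1*, a water channel gene of zebrafish endothelium, was lower in every mutant library (ENSDARG00000045141, chromosome 12, 20244235 to 20251184). Its values were 56, 55 and 43 in mutant and 84, 64 and 69 in WT hearts. The log2 difference was −0.49 (interval −0.94 to −0.03, limma adjusted p = 0.74), and it lay between −0.57 and −0.37 under the alternative settings. The von Willebrand factor gene *vwf* stood at 631, 787 and 623 in mutant and 665, 632 and 599 in WT hearts, which overlapped. The adaptor gene *she* stood at 617, 675 and 618 in mutant and 828, 651 and 657 in WT hearts, and WT replicate 1 carried most of its log2 difference of −0.15, which was −0.04 without it.

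*egfl7*, a secreted factor of the endothelial matrix whose locus holds a miR-126 gene, stood at 351, 470 and 415 in mutant and in a narrow range of 360, 371 and 368 in WT hearts. *dusp5*, a phosphatase of Erk signalling known from zebrafish vessels, stood at 181, 169 and 163 in mutant and 169, 123 and 132 in WT hearts, with a log2 difference of 0.29 (−0.03 to 0.60). Of the 33 tested genes, *dusp5*, *tal1* and *stab1* lie on chromosome 22 with *wwtr1*, at 8.16, 21.6 and 27.8 Mb from it. Effects of linked sequence and of the mutation cannot be told apart for these genes.

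The libraries differed in how the endothelial genes ranked within a genotype. In mutant replicate 2, 18 of the 33 genes, or 54.5%, had their highest mutant value, where 32.7% of all genes tested did. In WT replicate 1, 20 of 33, or 60.6%, had their highest WT value, against 31.7% of all genes. Mutant replicate 1 held the lowest mutant value of 17 of the 33 genes, or 51.5%, against 32.1% of all genes. WT replicate 2 held the lowest WT value of 15, or 45.5%, against 35.4% of all genes. The widest spread between libraries of 1 genotype was that of *mrc1a*, 3.64-fold in mutant and 2.94-fold in WT hearts, and the median over the 33 genes was a log2 range of 0.24 in mutant and 0.28 in WT hearts.

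**Figure D4:**
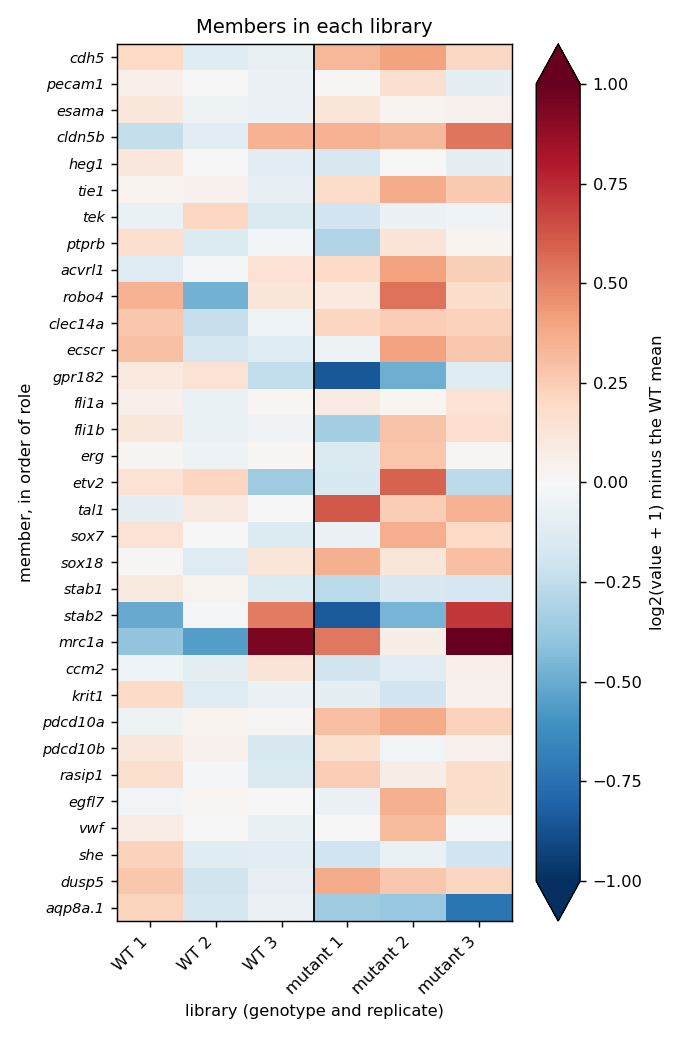
Log2(value + 1) minus the mean of the 3 WT libraries (colour) for each of the 33 tested genes in each of the 6 libraries. Among WT libraries replicate 1 shows the most red, among mutant libraries *etv2*, *fli1b* and *erg* are reddest in replicate 2, and *mrc1a* and *stab2* are red in replicate 3 of both genotypes.

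Summed over the 33 genes, the endothelial level was 17618, 19508 and 18016 in mutant and 18037, 15956 and 15862 in WT hearts. WT replicate 1 lay inside the mutant range. That library also had the highest sum of the 12 myocardial markers, 508691, where the other WT libraries had 443700 and 430847 and the mutant libraries 445524, 478139 and 436130. As a percentage of the myocardial sum of the same library, the endothelial sum was 3.95%, 4.08% and 4.13% in mutant (4.06% ± 0.0911, SD, n = 3) and 3.55%, 3.60% and 3.68% in WT hearts (3.61% ± 0.0688). The genotypes did not overlap on this measure, which was chosen after the values were seen and is given with no test. A few genes carry most of the myocardial sum. In mutant hearts *ttn.2*, *vmhcl* and *vmhc* averaged 144079, 102254 and 60518 of a mean sum of 453264. In WT hearts they averaged 143290, 105795 and 65190.7 of 461079. Ribosomal RNA genes held between 40.37% and 43.86% of the total of each library. As a percentage of the remaining total, the endothelial sum was 0.1416%, 0.1535% and 0.1396% in mutant and 0.1578%, 0.1127% and 0.1248% in WT hearts. There the genotypes overlapped, and WT replicate 1 was the highest of the 6 libraries.

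*cdh5* made up 31.9%, 30.4% and 28.7% of the endothelial sum in mutant and 28.4%, 25.8% and 26.7% in WT hearts. With it left out, the endothelial sum was 2.69%, 2.84% and 2.95% of the myocardial sum in mutant and 2.54%, 2.67% and 2.70% in WT hearts, and mutant replicate 1 then lay inside the WT range. When every gene was divided by the myocardial sum, 6 of the 33 genes were higher and 3 lower with no overlap, against 6.14% and 3.91% of all genes tested. The higher genes were *cdh5*, *tie1*, *tal1*, *pdcd10a*, *dusp5* and *clec14a*, the lower ones *stab1*, *aqp8a.1* and *she*, and 0 of 33 passed by limma over all genes (6 at an unadjusted p under 0.05, against 4.96% of all genes at this scaling).

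Markers of the other cell types are given by their summed levels and by their counts. The 7 epicardial markers summed to between 5053 and 5489 in mutant and between 5411 and 5841 in WT hearts, the 7 smooth muscle and mural markers to between 4538 and 4693 and between 4382 and 4977, and the 8 skin and hatching gland markers to between 56103 and 65103 and between 46540 and 71377. The sums overlapped between genotypes, but a few genes carry most of each sum. Of the 7 epicardial markers, 6 had log2 differences below 0, with a median of −0.31, and 3 were lower in every mutant library, against 5.53% of all genes tested. These were the factor genes *tcf21* (−1.11) and *wt1b* (−0.46) and the sialomucin gene *podxl* (−0.31), while *postnb*, a large part of the sum, stood at 0.17. Of the 8 skin and hatching gland markers 7 were above 0, the hatching gland protease genes *he1a*, *he1b* and *ctslb* by 1.25, 1.38 and 1.19, with groups that overlapped. By limma none of these passed over all genes tested. The values of *he1a*, *he1b* and *ctslb* were highest in replicate 2 of both genotypes, and whether same-numbered libraries share an effect there was not tested. *he1a* and *he1b* overlap on the same strand of chromosome 22, so their values may not be independent. That chromosome also holds *wwtr1*, and effects of linked sequence and of the mutation cannot be told apart for them. The symbol *ctslb* has another row, which was not used. None of the markers in these lists was at 0 in all libraries, and their part in the endothelial values was not tested.

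**Figure D5:**
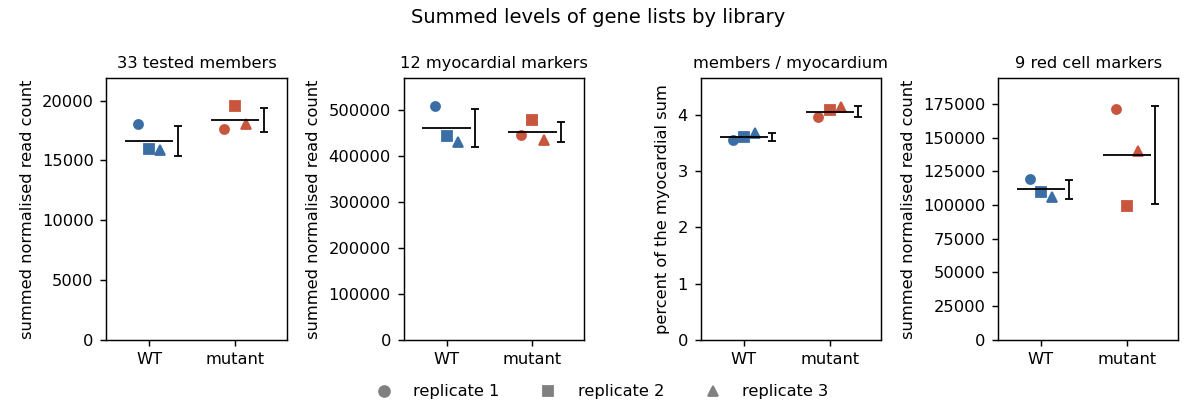
Summed normalised read count of the 33 endothelial genes, the 12 myocardial and the 9 red cell markers, and the endothelial sum as a percentage of the myocardial sum, in each library (vertical axes from 0; lines are means and bars are SD, n = 3). Only the percentage separates the genotypes, between 3.68% in WT replicate 3 and 3.95% in mutant replicate 1.

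A second list held 35 other genes of endothelium, endocardium and their signalling, of which 30 matched a row and all 30 were tested. By limma, 0 passed over all genes tested (7 at an unadjusted p under 0.05, 3 higher and 4 lower), with a median log2 difference of 0.03. The unadjusted share in all genes tested was 6.6%. Groups did not overlap for 11 of the 30, or 36.7%, 8 of them higher and 3 lower, against 11.1% of all genes tested (5.57% higher and 5.53% lower). The 3 lower genes were the Notch effector gene *hey2* (83.7 ± 13.6 in mutant against 127 ± 11 in WT hearts, log2 difference −0.60), the venous factor gene *nr2f2* (287 ± 40.9 against 366 ± 12.3, −0.36) and *myct1a* (126 ± 9.61 against 156 ± 7.23, −0.30). Among the 8 higher, the endocardial factor gene *nfatc1* had the lowest p (1224 ± 61.6 against 989.7 ± 70.9, a log2 difference of 0.31, limma adjusted p = 0.423). These 4 were named after their values were seen, and the part of other heart cells in their values was not tested. The sum of this list as a percentage of the myocardial sum was 4.61%, 4.44% and 4.78% in mutant and 4.12%, 4.37% and 4.50% in WT hearts, and mutant replicate 2 lay inside the WT range. Of the 4 genes named for the largest mean value, which also depends on transcript length, the endocardial receptor gene *notch1b* stood at 6118, 6734 and 6372 in mutant and 6004, 5883 and 5573 in WT hearts, all mutant libraries being higher. The ligand gene *apln* (1718 ± 6.66 against 1693 ± 182), the semaphorin and Vegf co-receptor gene *nrp1a* (1869 ± 97.3 against 1967 ± 212) and the LIM protein gene *crip2* (1350 ± 31.6 against 1157 ± 111) had log2 differences of 0.03, −0.07 and 0.23, and *crip2* was also higher in every mutant library.

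The Vegf receptor genes *kdr* and *kdrl*, further defining markers of endothelium, overlapped between genotypes, at 1063 ± 50 against 1013 ± 25.7 and 804 ± 53.0 against 819 ± 20.8. *klf2a* stood at 552, 503 and 465 in mutant and 691, 668 and 535 in WT hearts, where only WT replicate 3 reached below mutant replicate 1. Its log2 difference was −0.31 (limma adjusted p = 0.618). *klf2a* also lies on chromosome 22 with *wwtr1*, so effects of linked sequence and of the mutation cannot be told apart for it. *klf2b* overlapped at 815 ± 73.8 against 776 ± 90.9. *kdr*, *kdrl*, *klf2a* and *klf2b* were named for their role beside the 38, after their values were seen.

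The annotation in the deposited table gave Gene Ontology terms to 16 of the 35 matched genes. The term vasculature development was on 11 of them, or 68.8%, against 2.2% of the 9403 annotated genes of the table, and heart development was on 7. Since the genes were chosen by name for endothelial identity, a high share of such terms follows from that choice. The 35 genes lie on 17 chromosomes. For 9 of them another gene of the table overlaps the locus, and none of these overlapping genes had a value above 39 in any library. The margin was small for genes of low value. *stab2*, with a lowest value of 26, overlaps *wnt16* on the same strand, which reached 13. *robo4*, with a lowest value of 34, overlaps a gene on the other strand that reached 9.

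The 95% interval of the log2 difference lay within a 2-fold change in either direction for 32 of the 33 genes, the exception being *mrc1a*, and within a 1.5-fold change for 23. The interval reached to either side of the estimate by a median of 0.28, with a range from 0.18 to 0.99. These intervals are for single genes, without adjustment for the number of genes tested.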

How the data were processed

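RNA was measured in 6 libraries, 1 per pool of hearts, 3 mutant and 3 WT. Per the labels' protocols, 6.5 ng of total RNA entered a Clontech Pico Input Mammalian preparation, sequenced as single reads of 75 nt. The build was GRCz10 (danRer10), and reads went through STAR (2.4.0a) and Subread's featureCounts (1.4.5-p1), per the submitters' processing notes. The deposited values are a score: read counts per gene that the authors scaled between libraries and rounded. This was read from the values, since in mutant replicates 2 and 3 and WT replicate 2 some whole numbers from 1 to 100 (7, 5 and 12 of them) never occur. For the scaling method and the use of strand, the sources used here give nothing, so reads of overlapping genes on opposite strands may be mixed, and no count model was run. Symbols and coordinates are those of the table.

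Values were analysed as log2(value + 1), a scale that understates the change of low genes. The genotypes were compared by limma 3.58.1 (R 4.3.3) with a variance trend, Benjamini-Hochberg adjusted over all 18901 genes, and a gene passed at an adjusted p under 0.05. Transcript lengths were not used, so a mean value ranks genes by reads and not by transcript level, and sums over genes weigh long transcripts more. The script was tested on simulated data.

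The 38 genes and all lists were chosen with earlier results of these data known. Values in every library are given for genes past the test, with an unadjusted p under 0.05 or with groups that do not overlap, and for the 2 genes with the largest mean in each role; others so described were chosen after their values were seen. As alternatives, pseudocounts of 10 and 0.5, no filter and a minimum of 50, TMM (own implementation) and quantile scaling, weighted libraries, a block for the replicate number and leaving out each library were tried. Division by the myocardial marker sum was added after seeing the data.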

Additional observations from a re-analysis of the deposited data

How the results depend on the processing

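No endothelial gene passed over all genes tested under any of the 15 alternative settings, and over the 33 genes the median log2 difference stayed between 0.06 and 0.15. The number of genes of the whole table that passed, 7, was 15 with a replicate block and between 5 and 46 with 1 library left out (46 without WT replicate 2 and 11 without WT replicate 1). The number of endothelial genes with groups that do not overlap, 7, was 8 with TMM factors and 9 with quantile normalisation or division by the myocardial sum. The shares of all genes tested at these 3 settings were 11.8%, 11.6% and 10%. With 1 library left out the number was between 7 and 13. Leaving a library out makes such separation more frequent by construction, at 19.8% to 21.5% of all genes. The sign of the log2 difference changed with at least 1 of the libraries left out for 10 of the 33 genes (*pecam1*, *tek*, *ptprb*, *fli1b*, *erg*, *etv2*, *stab2*, *krit1*, *pdcd10b* and *vwf*) and under no setting for 23. In correlations across all genes tested, the replicate numbers shared by the genotypes showed no pairing of the libraries. Deviations of same-numbered libraries correlated at 0.0217, −0.0224 and −0.0178, and not every library correlated best with its own number. Whether the replicate numbers pair the libraries in single genes was not tested. With the replicate block 0 of the 33 genes passed and 7 had an unadjusted p under 0.05, against 6.48% of all genes in that fit. What 3 rounded libraries per genotype can resolve is limited. The least precise log2 differences of the 33 were those of *mrc1a*, *stab2* and *robo4* (standard errors 0.46, 0.37 and 0.25). Values of these genes were low, but so were those of *sox18* (0.23) and *aqp8a.1* (0.21).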
